A study of Mus musculus with 8 samples.

Results

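The genes described here are the cytochrome P450, conjugation and serpin genes listed beside Klf6 peaks in cultured mouse oligodendrocyte lineage cells. Their members were all genes whose symbol in the peak lists began with Cyp, Ugt1, Ugt2, Gsta, Gstm, Gstt, Sult or Serpin followed by a family number or letter, and whose listed transcription start site had a Klf6 peak summit between 50 kb upstream and 5 kb downstream. No tag count or fold enrichment entered that rule, but a member needed a called peak in any of the lists. The rule gave 60 genes of the 3888 genes with a listed peak, and 174 peaks of the 7855 listed peaks. No Gsta, Gstm or Gstt gene was among them.

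Klf6 binding was measured by chromatin immunoprecipitation and sequencing (ChIP-seq) in 2 stages of C57BL/6 oligodendrocyte lineage cells. The study used it to look for genes that Klf6 may control directly, and its design names binding at these stages as what was examined. Oligodendrocyte progenitors (OLP) were primary mouse cells grown with the mitogens PDGF-AA at 10 ng/ml and bFGF at 20 ng/ml, without T3. Immature oligodendrocytes (iOL) came from such cultures after 18 h with the thyroid hormone T3 at 40 ng/ml. Each stage had 2 Klf6 samples, labelled A and B and made with the same rabbit polyclonal Klf6 antibody, and 2 inputs against which peaks had been called. The labels give the same growth protocol for every sample and name T3 as the treatment, while the study's methods describe a change into differentiation medium with T3, so the medium and T3 cannot be told apart. The cells carried no engineered Klf6 loss or tag, and no sample without Klf6 was analysed here to show what the antibody recovers in its absence. Peak lists give no expression values, and neither the cell stage nor the expression of any member could be checked against markers here.

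Cytochrome P450 enzymes oxidise drugs, fatty acids and sterols, and the Ugt and Sult enzymes attach a sugar or a sulfate to such products so that they can be excreted. Serpins are protease inhibitors that trap their target enzyme by changing shape. Most of these genes are best known from liver, kidney, lung, gut and skin, and many stand in tandem arrays of close copies, while a few, such as Cyp51 of cholesterol synthesis, act in nearly every cell.

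Sequences under peaks found in several samples are shown first, chosen because the same sequence recurred under peaks beside different genes. They were read from the mm9 genome at the deposited peak coordinates. The first set has 4 places on 2 chromosomes, beside 3 genes of the Cyp4 array and Cyp2a4, each with peaks in all 4 samples, though for Cyp4b1 at adjoining positions, with the one shown missing from iOL B. The Cyp4a30b-ps peak lay at chr4:115099895-115099993, the Cyp4a29-ps peak at chr4:114869509-114869768, the Cyp4b1 peak at chr4:115337276-115337515 and the Cyp2a4 peak at chr7:27065512-27065729. The Cyp2a4 sequence is written from the minus strand and the others from the plus strand. Capitals mark, in the last 3, the part that BLAST aligned to the Cyp4a30b-ps peak and, in Cyp4a30b-ps, the part that all of them shared.
Cyp4a30b-ps: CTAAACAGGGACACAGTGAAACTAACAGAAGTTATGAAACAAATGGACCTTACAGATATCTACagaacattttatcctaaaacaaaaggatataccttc
Cyp4a29-ps: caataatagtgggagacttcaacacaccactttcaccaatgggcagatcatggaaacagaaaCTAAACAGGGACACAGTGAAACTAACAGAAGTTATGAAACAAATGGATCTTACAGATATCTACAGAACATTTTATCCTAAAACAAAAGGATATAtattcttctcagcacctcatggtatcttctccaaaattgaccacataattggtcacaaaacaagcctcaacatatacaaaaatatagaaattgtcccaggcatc
Cyp4b1: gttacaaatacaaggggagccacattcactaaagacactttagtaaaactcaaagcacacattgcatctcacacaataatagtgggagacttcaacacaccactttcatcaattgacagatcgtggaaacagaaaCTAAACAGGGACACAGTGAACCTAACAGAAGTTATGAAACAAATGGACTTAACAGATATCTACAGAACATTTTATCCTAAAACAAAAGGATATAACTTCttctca
Cyp2a4: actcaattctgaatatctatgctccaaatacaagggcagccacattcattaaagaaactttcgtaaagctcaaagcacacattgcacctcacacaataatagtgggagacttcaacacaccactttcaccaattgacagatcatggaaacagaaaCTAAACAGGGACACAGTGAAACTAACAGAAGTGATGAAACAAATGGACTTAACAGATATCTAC
The aligned part was 98.9% identical over 94 bases beside Cyp4a29-ps, 96.0% over 99 bases beside Cyp4b1 and 95.2% over 63 bases beside Cyp2a4.

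The second set crosses the gene families. A peak beside the sulfotransferase gene Sult1b1 (chr5:87970427-87970653, plus strand) shared sequence with a peak beside the P450 gene Cyp2c40 (chr19:39903247-39903507, minus strand) and with one beside Sult2a6 (chr7:14880460-14880549, minus strand). Capitals mark the part aligned to Sult1b1 and, in Sult1b1, the part that both others shared.
Sult1b1: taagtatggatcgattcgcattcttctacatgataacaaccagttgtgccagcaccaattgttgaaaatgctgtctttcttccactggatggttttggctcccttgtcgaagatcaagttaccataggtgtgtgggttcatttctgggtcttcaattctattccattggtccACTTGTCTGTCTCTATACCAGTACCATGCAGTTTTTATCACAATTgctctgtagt
Cyp2c40: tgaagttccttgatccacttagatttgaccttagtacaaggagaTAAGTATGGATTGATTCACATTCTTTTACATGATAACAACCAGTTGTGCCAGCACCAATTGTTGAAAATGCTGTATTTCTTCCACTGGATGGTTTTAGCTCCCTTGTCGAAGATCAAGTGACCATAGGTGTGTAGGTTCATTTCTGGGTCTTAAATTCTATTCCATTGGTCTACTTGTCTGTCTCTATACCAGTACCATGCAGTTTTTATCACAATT
Sult2a6: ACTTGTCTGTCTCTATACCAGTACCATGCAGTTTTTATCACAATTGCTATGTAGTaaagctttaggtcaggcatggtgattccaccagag
The Cyp2c40 peak was 95.9% identical to that of Sult1b1 over 217 bases, and the Sult2a6 peak was 98.2% identical over 55 bases. In the same way a peak beside the serpin gene Serpinb3b (chr1:109065762-109065848, plus strand) and one beside Cyp2f2 (chr7:27880022-27880147, plus strand) shared 75 bases at 97.3% identity, in capitals.
Serpinb3b: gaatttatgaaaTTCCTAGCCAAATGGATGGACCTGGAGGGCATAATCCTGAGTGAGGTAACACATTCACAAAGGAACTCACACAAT
Cyp2f2: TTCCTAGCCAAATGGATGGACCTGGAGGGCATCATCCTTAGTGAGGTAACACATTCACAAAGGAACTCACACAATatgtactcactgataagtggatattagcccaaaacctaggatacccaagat

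The last sequence differs in its count of matching sites. It lay in an intron of Cyp27a1 (chr1:74764082-74764243, plus strand). Counted from its OLP A peak, printed here, it was the only place with peaks in more than 1 sample that matched fewer than 1000 sites in the genome. Capitals mark the summit base and 10 bases on each side.
Cyp27a1: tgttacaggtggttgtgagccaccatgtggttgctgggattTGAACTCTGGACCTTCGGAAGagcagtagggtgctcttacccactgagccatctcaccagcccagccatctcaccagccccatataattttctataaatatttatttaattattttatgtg

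The 4 Klf6 lists were of unequal size, and the member counts moved less than the lists did. Listed peaks numbered 2744 in OLP A, 1647 in OLP B, 2222 in iOL A and 1242 in iOL B, and the 4 samples held between 105081 and 152149 tags in all their peaks. A tag is a sequenced read placed in a peak. Member genes numbered 34 in OLP A, 35 in OLP B, 37 in iOL A and 28 in iOL B. Members were thus 1.63% and 2.46% of the listed genes in OLP and 2.08% and 2.55% in iOL, with the lower share of each stage in its longer list.

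Member peaks held few reads, as listed peaks did in general. They held between 7 and 32 tags, with medians of 9, 13, 8 and 14 in OLP A, OLP B, iOL A and iOL B, beside medians of 8, 12, 8 and 13 over all listed peaks. The largest listed peak of any gene held 3300. Fold enrichment, the ratio of tags at the summit to the local background that the peak caller expected, had medians over member peaks of 17.0, 11.3, 14.8 and 11.7 in the same order. Ranked among all listed peaks of its own sample, the median member peak stood at the 69.4th, 73.0th, 49.5th and 67.1st percentile of fold enrichment. With so few tags per peak, the absence of a peak from a list does not show that Klf6 was absent there, and 2 member peaks, both in iOL B, had a false discovery rate of 5% or more.

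**Figure D1:**
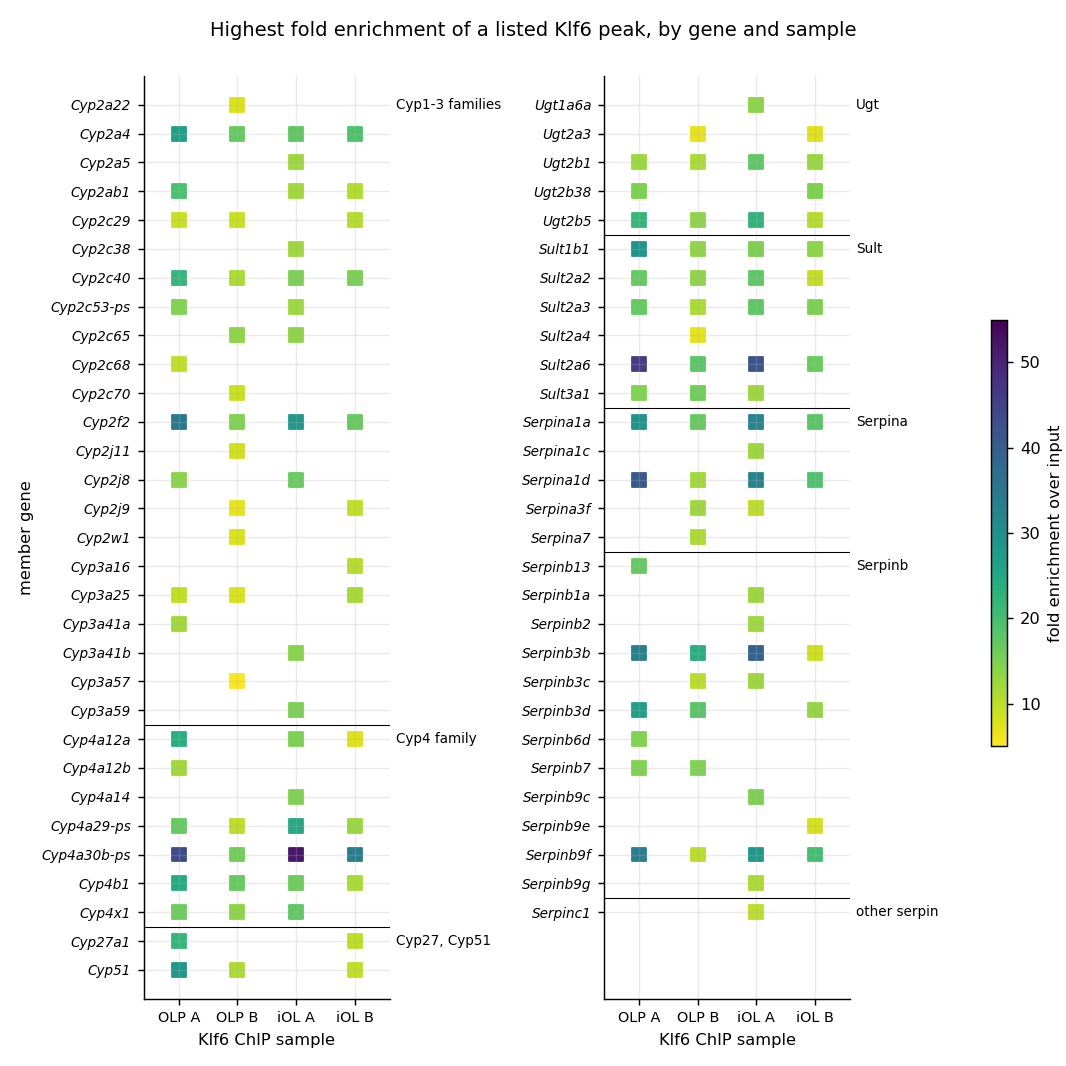
Each square marks a member gene (rows, ordered by family) with at least 1 listed Klf6 peak in a sample (columns), coloured by its highest fold enrichment over input, and an empty position is a gene with no listed peak in that sample. Cyp4a30b-ps in iOL A has the darkest square, at 52.1, and 16 of the 60 genes have a square in all 4 columns.

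Members recurred across samples. A listed peak was present in both OLP samples for 23 of the 60 members (38.3%), against 17.3% of all listed genes. It was present in both iOL samples for 18 (30%), against 15.6%. All 4 samples listed 16 members (26.7%), against 9.0%, and at least 3 samples listed 24 (40.0%), against 18.8%. Members listed in only 1 sample numbered 26 (43.3%), against 63.9% of all listed genes. With peaks of at least 10 tags only, both OLP samples listed 13 of 43 members (30.2%), against 16.5% of the 2341 genes left, and all 4 listed 9 (20.9%), against 8.76%. Between -15 kb and +5 kb, all 4 listed 3 of 20 members (Serpina1a, Serpinb3b and Sult1b1), which was 15%, against 5.94% of the 1868 genes listed there. No test compares these shares, since the members stand in shared arrays and are not independent of each other.

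Few members were listed in both samples of a stage and in neither sample of the other. Serpinb7, which encodes a clade B serpin of skin and kidney, was the single gene with this pattern in OLP, which is 1.67% of members against 3.29% of all listed genes. Its summit was at -30706 bp for OLP A but at -30203 bp for OLP B, and the peaks themselves did not overlap. No member had peaks in both iOL samples and in no OLP sample, against 1.72% of all listed genes.

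**Figure D2:**
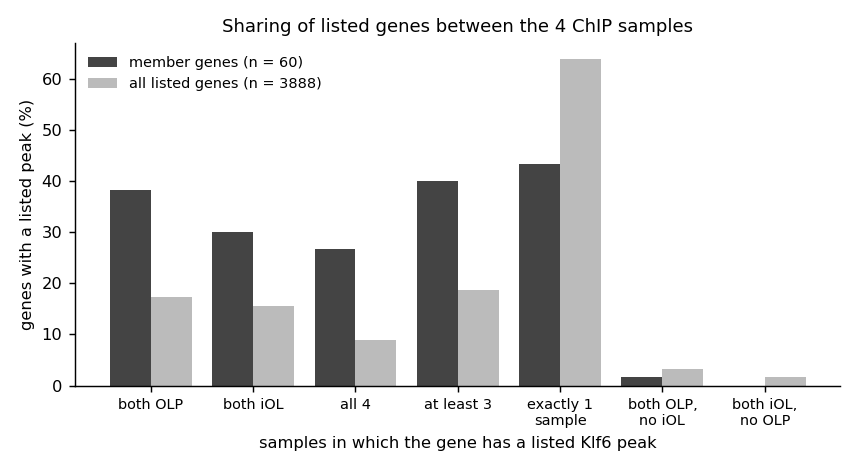
Bars give the percentage of the 60 member genes (dark) and of all 3888 listed genes (light) that have a listed Klf6 peak in the samples named under each pair. The dark bar is the higher one for both OLP, both iOL, all 4 and at least 3 samples, and the lower one for exactly 1 sample.

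The counts were compared between stages by exact permutation tests over the samples, for which 2 samples against 2 cannot give a two-sided p below 0.33. Member genes per sample were 34.5 ± 0.707 in OLP and 32.5 ± 6.36 in iOL (SD, n = 2), a difference smaller than the spread in iOL (exact permutation p = 1.0). The share of listed genes that were members was lower by 0.266 percentage points in OLP, where the values of the stages overlapped (exact permutation p = 0.67). Member peaks called repeated, a measure defined with the genome sequence below, were 95.4 ± 3.61% in OLP and 93.1 ± 6.88% in iOL (exact permutation p = 1.0). A peak within 500 bp was found in the other replicate for 54.1 ± 4.33% of member peaks in OLP and 47.3 ± 12.1% in iOL (exact permutation p = 0.67). The 2 values of a stage count largely the same pairs of peaks, seen from either replicate, and are not independent. The SD and p of this measure therefore do not give the spread between samples. Adjusted over these 4 tests by the Benjamini-Hochberg method, each exact permutation p was 1.0.

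The drug and xenobiotic P450 genes of the Cyp2 and Cyp3 families made up the largest group, with 22 genes, 52 peaks and 35 separate places. A place here joins peaks of any sample that lie within 500 bp of each other. Of the 22, 12 had a peak in 1 sample and 3 had peaks in all 4, namely Cyp2a4, Cyp2c40 and Cyp2f2. Cyp2a4 encodes a steroid hydroxylase of liver and kidney. Its place at -26615 bp had fold enrichments of 26.74 in OLP A, 7.96 in OLP B, 17.37 in iOL A and 13.74 in iOL B, and another place at -22351 bp, without a peak in iOL A, had 24.31, 16.89 and 19.03. Cyp2f2, the airway enzyme that activates naphthalene, had its only place at -24911 bp, with 34.96 in OLP A, 14.64 in OLP B, 28.18 in iOL A and 16.91 in iOL B. Cyp2c40, from the chromosome 19 array, had 21.88, 11.26, 14.89 and 15.33 in that order at -16090 bp. In each of these places replicate A of OLP had the highest value and replicate B of OLP the lowest, so the range within OLP was wider than the difference between the stage means.

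Cyp2ab1, Cyp2c29 and Cyp3a25 were each listed in 3 samples, and they differed in how their peaks lay. Cyp2ab1, an orphan P450, had 1 place in an intron of the neighbouring transporter gene Abcc5, with 19.45 in OLP A, 11.97 in iOL A and 10.85 in iOL B. Cyp2c29 had a different place in each of its 3 samples, with its summit at -7621 bp (OLP A), -31117 bp (OLP B) or -43122 bp (iOL B) from the listed start site. By the reference annotation, each of these places was intronic to Cyp2c29 itself. Cyp3a25 of the drug-metabolising Cyp3a array had a shared place in OLP B and iOL B, with 7.88 and 11.7, and another in OLP A with 9.6. The call of a gene in several samples therefore did not always mean peaks at the same position. The Cyp2c array held 7 member genes in all. Cyp2c38, Cyp2c68 and Cyp2c70 were each listed in 1 sample, with highest values of 12.41, 9.72 and 9.01, and Cyp2c65 and the pseudogene Cyp2c53-ps in 2.

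The Cyp4 genes, whose enzymes hydroxylate the ends of fatty acids, had 7 members, 27 peaks and 12 places. All 7 genes stood in 1 array of 541 kb on chromosome 4, and the Cyp4b1 peaks lay beyond the end of that array. The pseudogene Cyp4a30b-ps had the highest fold enrichment of any member. Its peaks at -25264 bp held 20 tags in OLP A, 15 in OLP B, 24 in iOL A and 32 in iOL B, with fold enrichments of 43.75, 15.77, 52.1 and 33.82. Both stages had a high replicate A here, and the values of OLP and iOL overlapped. The place fell in an intron of Cyp4a12b, so the listed gene was not the gene that held the peak. The pseudogene Cyp4a29-ps had 15.03, 9.95, 24.81 and 12.78 at -45066 bp. Cyp4b1, an enzyme of lung, had neighbouring peaks near -17087 and -17699 bp, the first missing from iOL B and the second from OLP B, so no single position was covered in all 4 samples. Cyp4x1, an orphan P450 with expression reported in brain, was listed in OLP A, OLP B and iOL A at -34813 bp, with 16.32, 13.52 and 17.43, and OLP A had a further peak with 7.85. Cyp4a12a, which acts on arachidonic acid, had a place at -24908 bp with 23.39 in OLP A and 14.8 in iOL A, and one at -40616 bp with 14.58 in OLP A and 7.62 in iOL B. Cyp4a12b and Cyp4a14 were listed once each, with 12.15 and 14.71.

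The sterol enzymes Cyp51 and Cyp27a1 were the only other P450 members, 2 of the 19 coding genes annotated in the steroid, sterol, bile acid, retinoid and vitamin D families. Cyp51, which removes a methyl group from lanosterol on the way to cholesterol, had a place at -43748 bp in both OLP samples, with 28.47 in OLP A and 11.21 in OLP B, and a separate peak at -21942 bp in iOL B with 9.51. Cyp27a1, a mitochondrial sterol hydroxylase, had the intronic place printed above, with 10 tags and a fold enrichment of 21.88 in OLP A and 14 tags and 9.98 in iOL B. That place was therefore found once per stage and in neither case in the other replicate.

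The glucuronosyltransferases had 5 members of 18 annotated coding genes. Ugt2b1 and Ugt2b5, liver enzymes of the chromosome 5 array, were listed in all 4 samples. Ugt2b1 had 12.57, 11.26, 17.37 and 12.68 at -31737 bp in OLP A, OLP B, iOL A and iOL B, where the iOL values lay above the OLP values, by little for iOL B. Ugt2b5 had 21.88, 13.52, 22.33 and 10.57 at -31983 bp, where both replicates A exceeded both replicates B. Ugt1a6a, Ugt2a3 and Ugt2b38 were listed in 1 or 2 samples, and both Ugt2a3 and Ugt2b38 had a different place in each of their samples.

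The sulfotransferases were the group most often shared, with 4 of 6 members listed in all 4 samples and another, Sult3a1, in 3. Sult1b1 acts on phenols and iodothyronines, and its peak at -3327 bp was the nearest to a start site among places found in all 4 samples. Its fold enrichment was 29.17 in OLP A, 13.52 in OLP B, 14.89 in iOL A and 13.74 in iOL B. OLP A stood above the other 3 samples, which lay close together. The Sult2a enzymes sulfate hydroxysteroids and bile acids. Sult2a6 had a run of 3 neighbouring peaks around -40286 bp, of which the one at that position was found in every sample, with 46.19 in OLP A, 9.32 in OLP B, 42.18 in iOL A and 16.63 in iOL B. Both replicates A stood far above both replicates B. Sult2a3 had 17.02, 11.26, 17.37 and 14.8 at -33044 bp. Sult2a2 was also listed in all 4 samples but at alternating places, with -27084 bp used in OLP A and iOL B and -29709 bp in OLP B and iOL A. Sult2a4 was listed in OLP B alone, with 7.11.

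The clade A serpins, secreted inhibitors made largely by liver, had 5 members of 23 annotated coding genes. Serpina1a and Serpina1d, mouse copies of the antitrypsin gene, were listed in all 4 samples. Serpina1d at -22277 bp had 18 tags in OLP A, 16 in OLP B, 14 in iOL A and 18 in iOL B, with fold enrichments of 41.32, 11.94, 32.25 and 19.03. Similar tag counts thus went with values that differed by more than 3-fold within OLP. Serpina1a had a pair of neighbouring peaks, each found in all 4 samples. At -12545 bp it had 29.17 in OLP A, 11.26 in OLP B, 32.25 in iOL A and 11.63 in iOL B. At -13077 bp it had 17.56, 16.89, 27.29 and 17.97, and iOL A was the highest sample at both. Serpina1c and Serpina3f were listed in 1 and 2 samples, and Serpina7, which encodes the thyroxine-binding globulin, in OLP B alone.

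The clade B serpins, which act mainly inside cells, had 12 members of 26 annotated coding genes, and 7 of the 12 were listed in 1 sample. Serpinb3b and Serpinb9f were the ones listed in all 4. Serpinb3b, a mouse relative of the squamous cell carcinoma antigens, had a peak in an intron of its annotated gene, at -8114 bp from the listed start site, with 19, 24, 16 and 20 tags and fold enrichments of 33.37 in OLP A, 23.65 in OLP B, 39.7 in iOL A and 8.78 in iOL B. The values of iOL enclosed those of OLP. Serpinb9f, from the family of granzyme B inhibitors, had 34.03, 10.35, 28.42 and 20.08 at -20186 bp. Serpinb3d was listed at -35165 bp in 3 samples, where OLP A had 26.74, OLP B 18.02 and iOL B 13.13. Serpinb1a, an inhibitor of neutrophil elastase, had a single peak with 8 tags and 12.41 in iOL A. It lay at -38869 bp, in an intron of Serpinb1c. The only other serpin was Serpinc1, the antithrombin gene, with a single peak of 7 tags in iOL A that lay in an intron of Rc3h1.

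**Figure D3:**
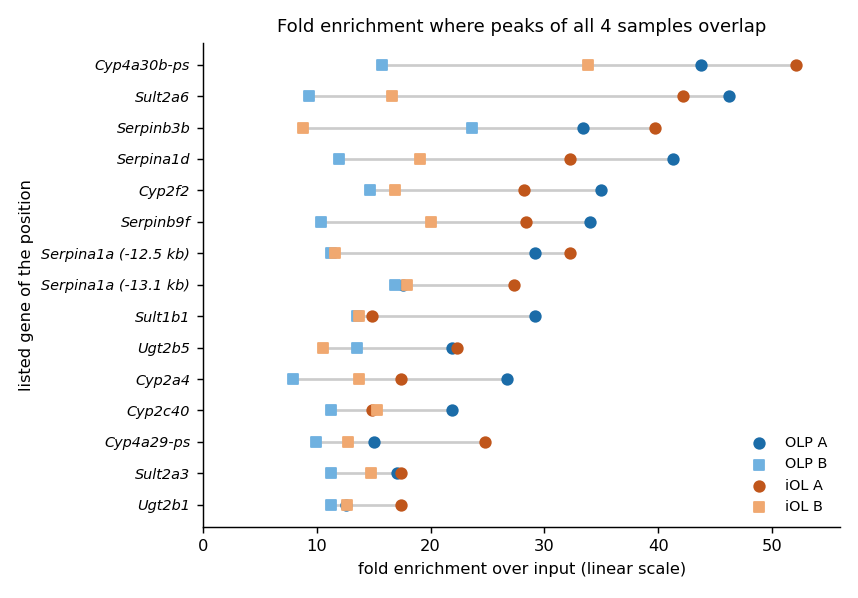
Points give the fold enrichment over input (linear axis) in each Klf6 sample at the 15 positions where peaks of all 4 samples overlap, named by their listed gene (Serpina1a has a pair), with circles for replicates A, squares for replicates B and a grey line from lowest to highest. The highest value is in OLP A at 7 positions and in iOL A at 8, and the squares lie left of the circle of the same stage except for Cyp2c40 in iOL.

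Of the 92 places, 15 were found in all 4 samples. At 14 of them peaks of all 4 samples overlapped each other, with summits within 3 to 21 bp, and Serpina1a had a pair of such positions, which makes 15 positions. Cyp4b1 was the exception. At these positions the highest value was in OLP A for 7 and in iOL A for 8. Replicate A exceeded replicate B at all 15 in OLP and at 14 in iOL, where Cyp2c40 was the exception. Median fold enrichment over the 15 positions was 29.2 in OLP A, 11.3 in OLP B, 27.3 in iOL A and 14.8 in iOL B. The A lists were also the longer ones in both stages. The part of the list sizes in these values was not tested, and fold enrichments are not compared further between samples for that reason.

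Most members stood in tandem arrays. The mm9 annotation held 209 coding genes with symbols of these families, and 57 of them (27.3%) had a listed peak, against 3325 of 22238 coding genes (15%). Arrays were defined as 3 or more genes of a family with gaps of at most 200 kb. Inside arrays 50 of 156 genes (32.1%) were listed, and outside arrays 7 of 53 (13.2%). Member peaks were counted to the array of their listed gene, also where they lay beyond its ends, as those of Cyp4b1 and Sult2a6 did. Of 19 arrays, 13 had a member peak. The 4 with most peaks were the Cyp4 array (27), the Sult2a array of chromosome 7 (20), the Cyp2c array of chromosome 19 (19) and the Serpina array of chromosome 12 (19). The Cyp2d and Cyp4f arrays and the 3 glutathione transferase arrays had no member peak, and 0 of the 16 annotated glutathione transferase genes were listed. Klf6 peaks without a listed gene did lie inside the Cyp2d array (8) and a Cyp4f array (2), but in no glutathione transferase array. The members outside arrays were Cyp27a1, Cyp2ab1, Cyp2w1, Cyp51, Serpina7, Serpinc1 and Sult3a1.

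Peaks of any kind were denser inside these arrays than across the genome. Counting every Klf6 peak, with or without a listed gene, the arrays held 7.87 peaks per Mb in OLP A, 5.53 in OLP B, 8.5 in iOL A and 4.78 in iOL B. The whole genome held 4.87, 3.06, 4.0 and 2.26 in the same order, which gives ratios of 1.62, 1.81, 2.13 and 2.12. The direction was the same in all 4 samples.

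The peaks lay far from the listed start sites. No member peak had its summit within 2 kb of the listed start site, where between 3.78% and 6.92% of all listed peaks of a sample lay. The nearest was 2250 bp from the start site of Cyp2c53-ps. Only 3 of the 174 peaks were downstream of the listed start, and 41 (23.6%) lay between -15 kb and +5 kb, against 38.8% of all listed peaks. By the reference annotation, 70 of the 92 places were intergenic, 21 intronic and 1 exonic.

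**Figure D4:**
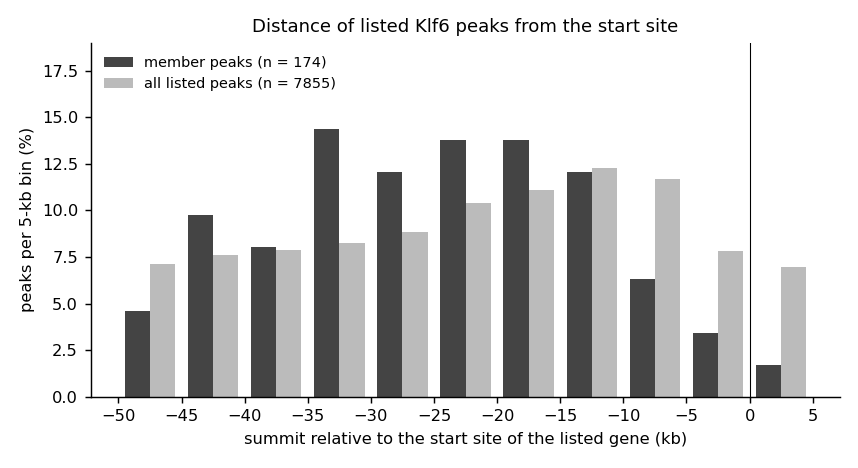
Bars give the percentage of the 174 member peaks (dark) and of all 7855 listed peaks (light) whose summit falls in each 5-kb bin from the start site of the listed gene, with upstream distances negative. In the bin from 0 to 5 kb downstream lie 1.72% of member peaks and 6.99% of all listed peaks.

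The DNA under member peaks was mostly not unique. A peak was called repeated where more than 50% of its 32-base stretches occurred more than once in the mm9 genome on either strand. This held for 165 of 174 member peaks (94.8%) and for 82.0% of all listed peaks. By sample it held for 98%, 92.9%, 98% and 88.2% of member peaks in OLP A, OLP B, iOL A and iOL B, and for 86.0%, 68.9%, 87.1% and 81.2% of all listed peaks. The members exceeded the whole list in every sample. The Cyp4 and Sult members reached 100%.

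Copies were counted by aligning 1 peak of each place to the genome and keeping alignments of at least 90% identity over at least 80% of the peak. The median place matched 13255 sites. More than 10000 sites were matched by 56 of the 92 places, and 57703 by the highest, beside Cyp4a29-ps. A single site was matched by 7 places, beside Serpinb3b, Serpinc1, Cyp2c70, Cyp2j9, Cyp51, Ugt2a3 and Cyp2a22. Alignments between the places themselves joined 64 of the 92 into 17 groups of shared sequence. The largest group had 16 places beside 15 genes of 4 families on 6 chromosomes, among them Cyp2c40, Cyp3a25, Serpina1d, Sult1b1, Sult2a6 and Ugt2b38. Shared sequence thus ran across families whose coding sequences are unrelated.

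Recurrence between samples went with copy number. Of the 56 places with more than 10000 matching sites, 28 had peaks in 2 or more samples and 14 in all 4. Of the 12 places with up to 10 sites, 1 had peaks in 2 samples, that of Cyp27a1, and 0 had peaks in all 4. Both Cyp27a1 peaks were themselves called repeated, with 68.7% of stretches repeated in OLP A and 100% in iOL B. Only the OLP A peak was aligned to count its sites. Each of the 7 single-site places was found in 1 sample. Among the 9 member peaks not called repeated, 0 had a peak of the other replicate within 500 bp. How reads that match several sites had been placed was not given in the sources used here, and the part of that placement in the recurrence was not tested.

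**Figure D5:**
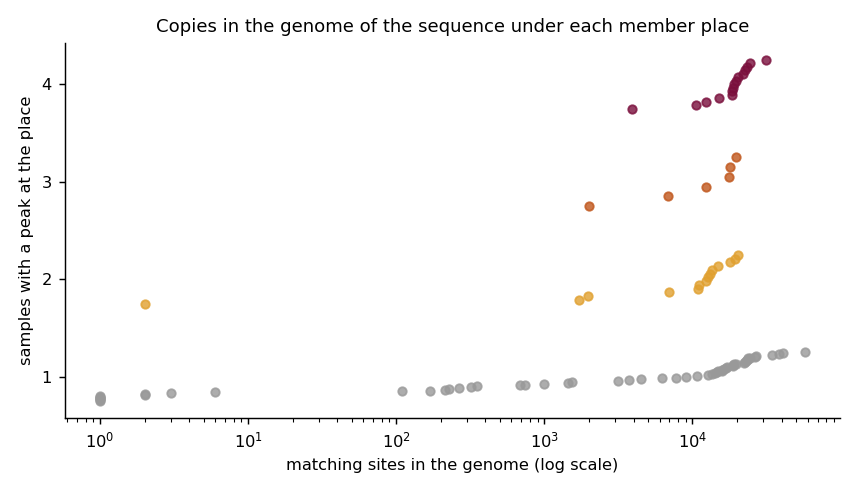
Each point is one of the 92 member places, placed by the number of sites its sequence matches in the mm9 genome (log axis) and by the number of Klf6 samples with a peak there, spread vertically within each number so that points do not cover each other. The 15 places in all 4 samples lie between 3906 and 31406 sites. Places with few sites lie in the lowest row, except for Cyp27a1 at 2 sites, where both peaks were called repeated.

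The same relation was present in the whole list. Among all listed peaks called repeated, a peak of the other replicate lay within 500 bp for 23.3% in OLP A, 47.4% in OLP B, 28.9% in iOL A and 53.5% in iOL B. Among those not called repeated the shares were 6.25%, 4.68%, 5.24% and 9.87%. Member peaks stood at 51%, 57.1%, 38.8% and 55.9%, above the repeated peaks of the whole list in each sample. By place, 15 of 92 member places (16.3%) and 283 of 5480 listed places (5.16%) had peaks in all 4 samples.

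Krüppel-like factors bind GC-rich and CACCC-type elements. The core CCACCC or CCGCCC, on either strand and within 100 bases of the summit, was found under 1 member peak, at Cyp2c65 in iOL A, or 0.575% of member peaks against 6.07% of all listed peaks. The looser CACCC, which CCACCC contains, was found under 24.7% of member peaks and 20.0% of all listed peaks. By sample the shares were 28.6% and 26.2% of member peaks in OLP A and OLP B, against 19.9% and 16.5% of all listed peaks, but 20.4% and 23.5% in iOL A and iOL B, against 20.5% and 23.9%. Base composition was alike, with median GC contents by sample of 36.4% to 38.0% under member peaks and 36.5% to 39.3% under all listed peaks. The absence of these letters from a window does not by itself show whether Klf6 was bound there.

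Of 26 genes of these families with known roles in brain, 5 (19.2%) were listed, beside 27.3% of the coding genes of these families and 15% of all coding genes. They were Cyp51, Cyp27a1, Cyp4x1, Cyp2j9 and Serpinb1a. Cyp2j9, a P450 described from brain, had 1 peak in OLP B with a fold enrichment of 6.76 and 1 in iOL B with 9.51, with summits at -16496 and -21242 bp. The 21 without a listed peak included Cyp46a1, the cholesterol hydroxylase of neurons, Serpini1, the neuroserpin gene, Serpine2, a glial protease inhibitor, and Serpina3n, an astrocyte serpin. A further 7 genes of the families, Cyp2c39, Cyp39a1, Cyp4a10, Serpina3g, Serpina3h, Serpinb9d and Ugt2b35, had a peak within the distance window but were never the listed gene.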

How the data were processed

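Klf6 ChIP-seq was carried out in 2 biological replicates each of OLP and iOL, with 2 inputs per stage. Per the study's methods, the authors filtered reads for quality with FASTX, aligned them to mm9 with Bowtie2, used MACS to call the peaks of every Klf6 sample relative to input, and assigned RefSeq start sites to those peaks. The submitters' processing notes also name CASAVA 1.8. The MACS version and the treatment of reads with several matches are not given in the sources used here. The deposited lists give per peak a count of tags, a score of -10 times the log10 of the p-value, a ratio called fold enrichment and a false discovery rate in percent, all made by the authors' peak caller for each sample separately. Total aligned reads were not given, so depth is known here only as tags in peaks (105081 to 152149 per sample). Inputs were not analysed here.

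Members, gene groups, arrays and the brain list were chosen with earlier results of these data known. Named genes were members in at least 3 samples, the leading members of each family, the 10 highest folds, members in both replicates of 1 stage and neither of the other, brain-list members and members of the 4 arrays with most peaks, and others are given where a count of a few asked for names. Peaks within 500 bp were taken as one place. All 36280 peaks fell on chromosomes of the NCBIM37 (mm9) reference, which with GENCODE vM1 gave sequence and positions, and listed start sites were within 100 bp of an annotated start for 57 of 59 members that it names. Stretches of 32 bases were counted over the genome on both strands. Copies and groups of shared sequence were found with BLAST+ 2.17.0 (megablast against the genome, and alignments of at least 60 bases between places). The alignments printed with the sequences were not held to that length. Sequences were read with pysam 0.24.0. Python 3.11.15 was used, and the overlap and repeat steps were tested on simulated data. Stages were compared by two-sided exact permutation tests (2 against 2). Alternatives were a narrower window, stricter tags, score or false discovery rate, a wider symbol rule, other overlap, repeat and motif settings, leaving out each sample, and a replicate block.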

Additional observations from a re-analysis of the deposited data

How the results depend on the processing

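Of 101 values recomputed under the alternatives, 82 were labelled unchanged, 9 moved and 10 changed sign. Differences between stages were judged by their direction, and mean shares and percentiles by the spread between replicates. Counts of member genes were judged by a fixed ratio to the main value. All 10 changes of sign were differences between stages that no setting carried past a test. The narrow window of -15 kb to +5 kb, which holds 41 of the 174 peaks, left 3 members in both OLP samples, 3 in both iOL samples and 3 in all 4, lowered the mean share near the other replicate to 41.4%, raised the core to 1.79% of peaks, and turned the OLP minus iOL differences to -2.86 (near the other replicate) and -5.0 (repeated). The narrow window was also applied to the peaks of the other replicate, so those without a listed gene could not count as near. At least 10 tags left 13 members in both OLP samples and 9 in all 4, and turned the repeated difference to -0.14. A score of at least 50 turned the difference in member genes to -1.0, that near the other replicate to -1.35 and that in repeated peaks to -1.35. Stretches of 50 bases lowered the mean share of repeated peaks from 94.3% to 76.7%. The looser CACCC in place of the core raised the mean share of member peaks with the motif from 0.51% to 24.7%. The stricter settings leave fewer peaks, and the repeat and motif settings change what is counted. Beyond that, the cause of these shifts was not tested. Leaving out each sample in turn, the difference ranged from -2.5 to 6.5 member genes (negative without iOL B), from -0.681 to 0.149 percentage points of listed genes (positive without OLP A) and from -2.55 to 7.17 for repeated peaks (negative without iOL B or OLP A), and the members in all remaining samples from 16 to 20. The share near the other replicate could not be given for a stage left with 1 sample, so its difference was not run there.

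The letters A and B name replicates in both stages, and nothing in the labels says that they pair samples. The differences A minus B in OLP and iOL had a correlation of 0.0254 over 3888 listed genes. Taking the letter as a replicate block gave differences of 2.0 genes, -0.266, 6.75 and 2.31 percentage points (exact sign-flip permutation p = 1.0, 0.5, 0.5 and 1.0, where 0.5 is the smallest possible), and no call changed. For the share near the other replicate, the values of a stage are again not independent. With 7 to 32 tags per peak, depth limits what absence from a list can show.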

Other observations

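Inside the tandem arrays, 110 Klf6 peaks had no listed gene. They entered the density of peaks in the arrays but none of the counts of member genes, peaks or places. They numbered 33 in OLP A, 20 in OLP B, 38 in iOL A and 19 in iOL B, and fell at 67 places. Of these places 45 had a peak in 1 sample and 5 had peaks in all 4.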
